A study of Mus musculus with 16 samples.

Results

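Enterobacteriaceae, Deferribacteraceae and Enterococcus were followed as shares of the 16S rRNA gene reads in mouse stool. They were set against the obligate anaerobes of class Clostridia in the same libraries. The members were all amplicon sequence variants (ASVs, distinct sequences of the amplified gene stretch) whose deposited family name was Enterobacteriaceae or Deferribacteraceae, or whose genus name was Enterococcus. They numbered 8 of 1330 ASVs and held 4.78% of all reads. Enterobacteriaceae had 3 ASVs, all of the label Escherichia-Shigella, which joins a pair of genera with near-identical 16S genes. Deferribacteraceae had 4 ASVs, all of the genus Mucispirillum, and Enterococcus had 1. Class Clostridia had 533 ASVs and 39.3% of all reads.

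The stool came from wild-type (WT) mice and mice with a knock-out of Msc (KO), which encodes the transcription repressor musculin. Each genotype had 4 healthy libraries (time point 0) and 4 from mice with colitis (time point 1). The colitis was induced by dextran sulfate sodium (DSS, spelled "DDS-induced_col" in the labels), a polymer that injures the colon lining. Condition and time cannot be told apart, because all DSS libraries are of the later time, and genotype cannot be told apart from cage, which the sources used here do not give. Age, sex, dose and whether a replicate number is the same animal at both times are not given either. P-values judge differences only against the spread between these samples. The main tests treated all libraries as independent. If a number marks the same animal at both times, the DSS against healthy tests and the interactions leave that pairing out.

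Enterobacteriaceae are facultative anaerobes that use oxygen or nitrate when these are present. They are usually scarce in the healthy colon and are known to expand in inflamed guts. Mucispirillum lives in the intestinal mucus of rodents and respires nitrate. Enterococcus is a facultatively anaerobic lactic acid bacterium that tolerates oxygen and bile. Most gut Clostridia are strict anaerobes that ferment plant fibre and mucus sugars to short-chain fatty acids, butyrate among them.

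The libraries held 49253 to 70577 reads, and 3 reads, the limit that a count of 0 allows, were 0.00425% to 0.00609% of a library. Intervals and limits cover counting error only, because PCR copies are not separate molecules. A share is relative, so growth of a taxon and loss of the other bacteria cannot be told apart, and 16S gene copies per cell differ between taxa. WT DSS replicate 1 stood apart, with 711 ASVs seen in no other library, which held 17.1% of its reads. Of the 8 member ASVs, 4 passed the filter for testing (at least 5 reads in at least 4 libraries). The other 4 were rare: 1 Escherichia-Shigella ASV had 2 reads in WT DSS replicate 0, and 3 Mucispirillum ASVs had 2 reads each in WT healthy replicates 2 and 3.

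Enterobacteriaceae rose with DSS in both genotypes, from under 0.4% of the reads in every healthy library to 2.10% or more. In healthy WT mice the family held 0.10%, 0.201%, 0.168% and 0.0347% of reads in replicates 0 to 3, a mean of 0.126% ± 0.0739 (SD, n = 4). In healthy KO mice it held 0.392%, 0.0945%, 0.149% and 0.117%, a mean of 0.188% ± 0.138. Both healthy groups overlapped, and the highest healthy library was KO replicate 0.

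In WT mice with DSS the family held 6.57%, 3.35%, 4.61% and 4.88% of reads, a mean of 4.85% ± 1.32. In KO mice with DSS it held 12.6%, 6.33%, 4.10% and 2.10%, a mean of 6.27% ± 4.53. No DSS library overlapped with a healthy library of its genotype: the lowest was 16.7-fold above the highest healthy library in WT mice and 5.36-fold in KO mice. Lack of overlap was common: DSS and healthy libraries did not overlap for 31.8% (WT) and 33.3% (KO) of the 66 genera tested. The 4 KO libraries with DSS spread more widely than the WT libraries, from 2.10% (Wilson 95% interval 1.99% to 2.22%) to 12.6% (12.3% to 12.8%).

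**Figure D1:**
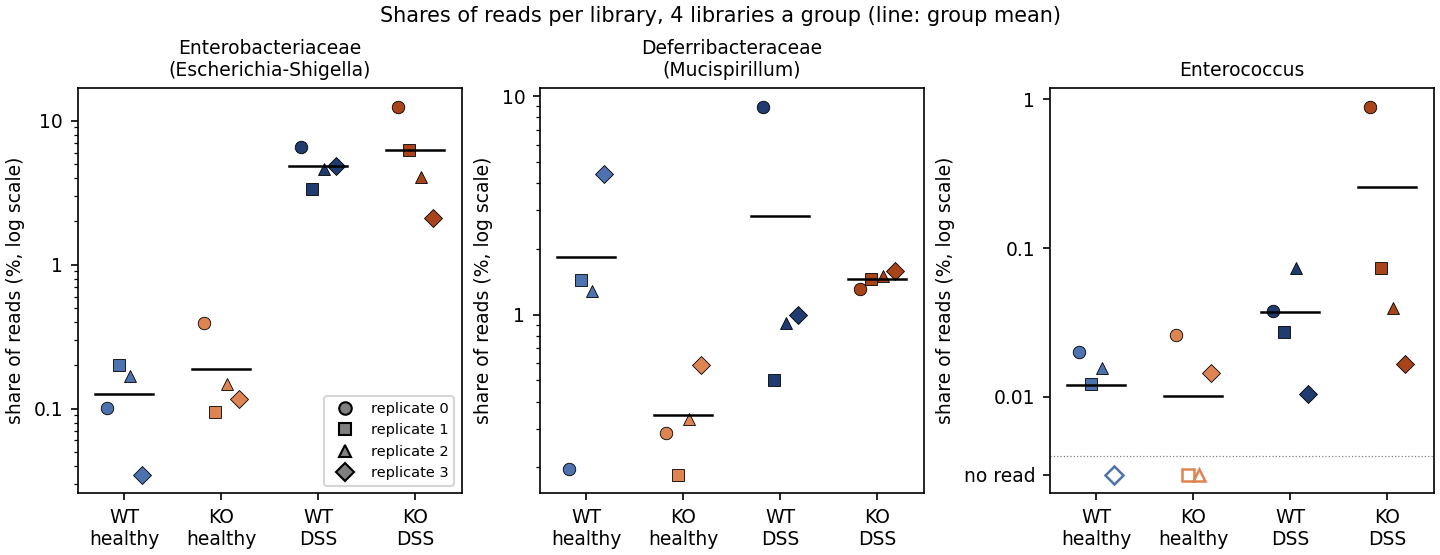
Share of reads (%, log scale) of Enterobacteriaceae, Deferribacteraceae and Enterococcus in each of the 16 libraries, by group; each point is a library, its shape the replicate number, the line the group mean, and open symbols on the lowest line libraries with no read. Enterobacteriaceae lay at 0.0347% to 0.392% in healthy and at 2.10% to 12.6% in DSS libraries, while single libraries stood far above the rest for Deferribacteraceae (WT DSS replicate 0, 8.94%) and Enterococcus (KO DSS replicate 0, 0.893%).

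The mean share was 38.5 times as high with DSS as in healthy WT mice and 33.3 times as high in KO mice. Without KO DSS replicate 0, the highest library, the KO ratio was 22.2. Reads summed to genus labels were tested for 66 genera in 1 edgeR quasi-likelihood fit over all 16 libraries, with Benjamini-Hochberg adjustment and a threshold of 0.05. On its log2 scale of normalised counts, Escherichia-Shigella rose by 5.85 ± 0.81 (SE) in WT mice (adjusted p = 7.51e-05) and by 5.15 ± 0.78 in KO mice (adjusted p = 0.000121). It had the smallest p-value of the 66 genera in WT mice and the 3rd smallest in KO mice. With any 1 library left out, the log2 change lay between 5.52 and 6.01 in WT and between 4.09 and 5.80 in KO mice, and each passed.

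Genotype did not separate the Enterobacteriaceae shares. KO against WT gave a log2 change of Escherichia-Shigella of 0.87 ± 0.66 in healthy mice (edgeR, adjusted p = 0.458) and of 0.17 ± 0.65 under DSS (adjusted p = 0.959), with overlapping libraries in both. The approximate 95% interval of the DSS value ran from -1.11 to 1.45, so a difference of either sign of more than 2-fold is within it. The interaction, which is the difference between the genotype effects in DSS and healthy mice, was -0.70 ± 0.93 (adjusted p = 0.705). Single libraries moved these values: without KO healthy replicate 0 the healthy difference was 0.23 and the interaction -0.06, and without KO DSS replicate 0 the interaction was -1.67, none of which passed.

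The family was carried by a pair of ASVs, asv9 and asv29 (numbered by total reads), and these kept a fixed proportion in the DSS libraries. Asv9 had 1627 to 3309 reads in WT and 1073 to 7383 in KO libraries with DSS, and asv29 had 339 to 663 and 198 to 1484. Per read of asv9 there were 0.185 to 0.211 reads of asv29 in the 8 DSS libraries, with a median of 0.205 and an SD of 0.00843. The proportion thus moved little while the family's share varied from 2.10% to 12.6%.

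Among healthy libraries, only KO replicate 0, with the highest share of them, had reads of asv29: 37 beside 190 of asv9, a ratio of 0.195. The other 7 healthy libraries had 23 to 108 reads of asv9 and no read of asv29. At the median ratio of the DSS libraries, 4.70 to 22.1 reads of asv29 would have accompanied them. By counting error alone, a count of 0 there allows asv29 up to 2.78% to 13% of the reads of asv9, which is below the proportion in each DSS library.

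**Figure D2:**
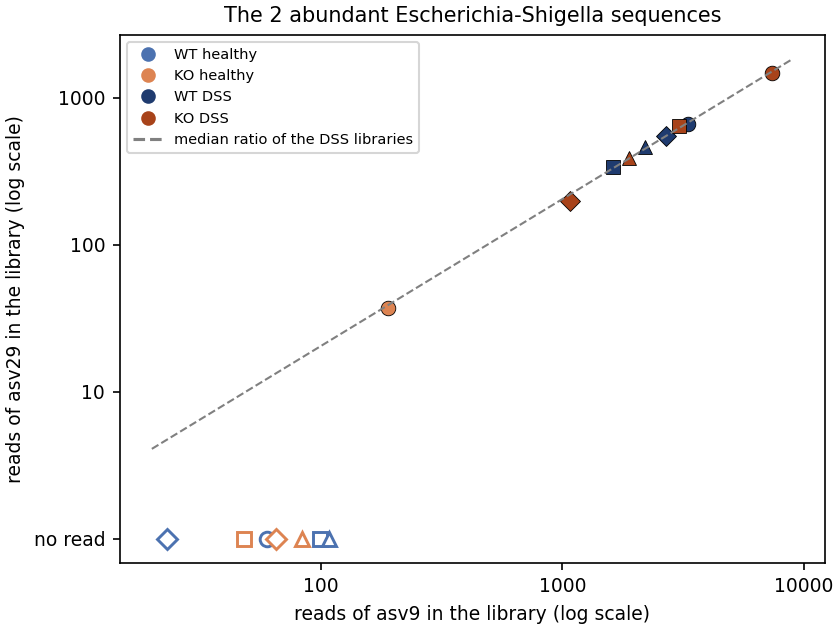
Reads of asv29 against reads of asv9, the pair of abundant Escherichia-Shigella ASVs, in each library (both axes log scale; colour is the group, shape the replicate number as in the plot of shares; open symbols have no read of asv29). The dashed line is the median ratio of the 8 DSS libraries, 0.205, on which KO healthy replicate 0 also lies, while the other 7 healthy libraries have no asv29 read at 23 to 108 reads of asv9.

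In the fit on 308 ASVs, which called 17.2% of the ASVs in WT mice and 28.9% in KO mice for DSS against healthy, asv9 rose in both genotypes. Asv9 changed by 5.50 ± 0.75 in WT (edgeR, adjusted p = 0.000334) and by 4.95 ± 0.73 in KO mice (adjusted p = 0.000323). The Enterococcus ASV, asv98, passed in KO mice (4.76 ± 1.71, edgeR, adjusted p = 0.0483), with overlapping libraries and 630 reads in KO DSS replicate 0. The Mucispirillum ASV, asv10, did not pass there (2.15 ± 0.82, adjusted p = 0.0584). In WT mice neither passed (edgeR, adjusted p = 0.370 for asv98 and 0.383 for asv10). Asv29 reached 5 reads in 8 DSS libraries and 1 healthy library, so it passed the filter only through the condition in which it was high, and its DSS difference is given as a description with no test. In WT mice, where no healthy library had a read of it, it was 163-fold higher with DSS against a floor of 3 reads per library. That floor covers counting error only. The denoiser is not given, and whether it removed low counts was not tested. Over all ASVs and libraries, 9 counts were of 1 read and 74 of 2 reads. If low counts were removed, a count of 0 allows more reads than this floor, and the fold value would be smaller. For KO against WT the fit called 7.14% of ASVs in healthy mice and 14.9% under DSS, and 5.52% for the interaction. None of the 4 tested members was among these. At an unadjusted p under 0.05, asv10 and asv29 were below it for KO against WT in healthy mice. The interaction of asv29 (-6.20 ± 2.29) contains its DSS difference, so it too is a description with no test. DESeq2 (adjusted p = 0.0164) and edgeR with no filter (adjusted p = 0.000380) called asv29 for KO against WT in healthy mice, a difference that rests on the 37 reads of KO healthy replicate 0.

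Deferribacteraceae, all but 6 of whose reads were of the Mucispirillum ASV asv10, varied widely between libraries of a group, except in KO mice with DSS. Healthy WT mice held 0.197%, 1.44%, 1.28% and 4.39% in replicates 0 to 3, a mean of 1.83% ± 1.80 (SD, n = 4). Healthy KO mice held 0.287%, 0.185%, 0.332% and 0.589%, a mean of 0.348% ± 0.172. The KO libraries were low throughout, and 1 WT library, replicate 0, lay among them.

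With DSS, WT mice held 8.94%, 0.50%, 0.918% and 0.996%, a mean of 2.84% ± 4.07. WT DSS replicate 0 (Wilson 95% interval 8.72% to 9.17%) held more Mucispirillum than any other library, and the other 3 averaged 0.804% ± 0.267. KO mice with DSS held 1.31%, 1.45%, 1.5% and 1.58%, a mean of 1.46% ± 0.111. Relative to its mean this spread was the smallest of the 3 taxa and 4 groups (a coefficient of variation of 7.61%), and all 4 libraries lay above the healthy KO libraries. For DSS against healthy in KO mice, 33.3% of the 66 genera tested had groups that did not overlap.

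On the log2 scale of the genus fit, Mucispirillum was 2.15 ± 0.86 higher with DSS in KO mice, which did not pass the threshold (edgeR, adjusted p = 0.0579). DESeq2 gave 1.99 with an adjusted p of 0.0295, and a fit of only the KO libraries gave 1.89 with 0.0152. The ratio of mean shares was 4.19, and an exact permutation test on log2 of percent plus 0.01 gave a difference of 2.15 (two-sided p = 0.0286, the smallest that 4 against 4 libraries allow; 0.107 after adjustment over 45 tests). In WT mice the difference for DSS was 1.33 ± 0.83 (edgeR, adjusted p = 0.253), and without WT DSS replicate 0 it turned to -0.38 (adjusted p = 0.708). The interaction was 0.82 ± 1.16 (edgeR, adjusted p = 0.737). It was 2.43 without WT DSS replicate 0 (adjusted p = 0.173) and 0.07 without WT healthy replicate 3 (adjusted p = 1).

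For KO against WT, Mucispirillum gave -1.99 ± 0.85 in healthy mice (edgeR, adjusted p = 0.196; unadjusted 0.0326). Without WT healthy replicate 3, the healthy library with the highest share, that difference was -1.24 (adjusted p = 0.450), and limma gave -0.88 (adjusted p = 0.527). Under DSS it gave -1.17 ± 0.83 (adjusted p = 0.391), which without WT DSS replicate 0 turned to 0.68 (adjusted p = 0.509). Neither difference passed. The interval of the healthy value ran from -3.66 to -0.32, so its size is poorly fixed by 4 libraries a group.

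Enterococcus, with asv98 alone, was the rarest of the 3 taxa in all 16 libraries. Healthy WT mice had 12, 6, 10 and 0 reads in replicates 0 to 3, a mean share of 0.0119% ± 0.00860 (SD, n = 4). Healthy KO mice had 15, 0, 0 and 8 reads, a mean of 0.0101% ± 0.0126. In the libraries with no read, counting error alone allows a share of up to 0.00452% (WT replicate 3), 0.00590% and 0.00533% (KO replicates 1 and 2). These limits would be higher if low counts had been removed before deposit.

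With DSS it was present in every library. WT mice had 23, 16, 42 and 7 reads, a mean of 0.0372% ± 0.0264. KO mice had 630, 43, 22 and 10 reads, a mean of 0.256% ± 0.425. A single library, KO DSS replicate 0 at 0.893% (Wilson 95% interval 0.826% to 0.965%), set that mean: the other 3 averaged 0.0433% ± 0.0288. DSS and healthy libraries overlapped in both genotypes.

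Enterococcus rose with DSS in KO mice by 4.88 ± 1.55 on the log2 scale (edgeR, adjusted p = 0.0194). Without KO DSS replicate 0 the difference was 1.75 and did not pass (adjusted p = 0.324). It also missed the threshold without KO healthy replicate 2 (4.49, adjusted p = 0.0513) or replicate 3 (5.0, adjusted p = 0.0510). The exact permutation test of its share gave p = 0.0571 (two-sided, 0.184 after adjustment). In WT mice the difference was 2.21 ± 1.4 (edgeR, adjusted p = 0.253). KO against WT was -0.04 ± 1.43 in healthy mice (adjusted p = 1) and 2.64 ± 1.39 under DSS (adjusted p = 0.184), which turned to -0.33 without KO DSS replicate 0. The interaction was 2.68 ± 1.96 (adjusted p = 0.420), and -0.46 without that library.

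**Figure D3:**
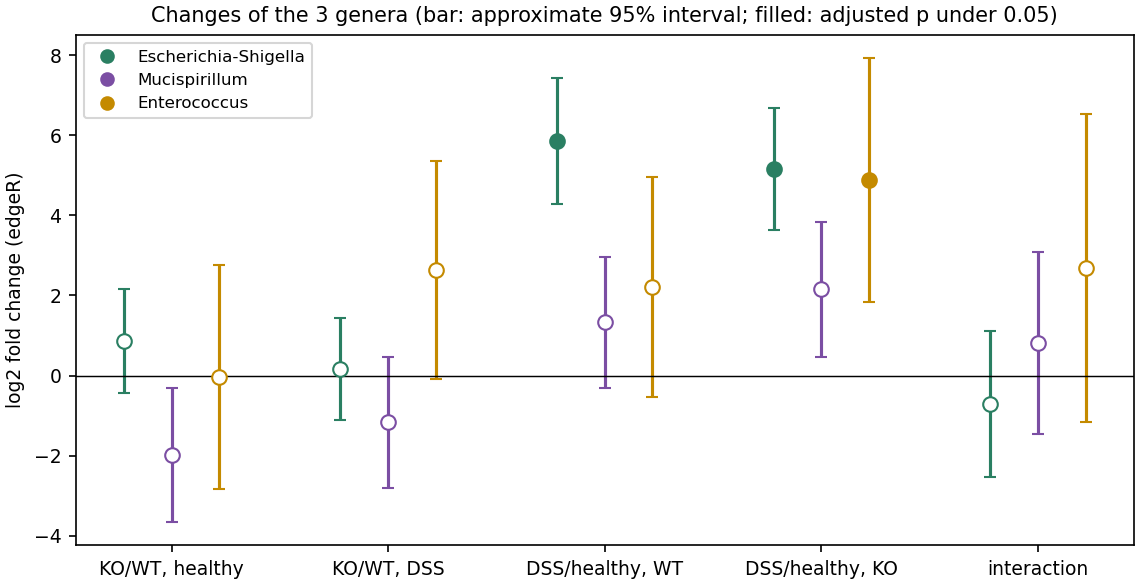
Log2 fold change of the genera Escherichia-Shigella, Mucispirillum and Enterococcus in the edgeR fit, for KO against WT (healthy, DSS), DSS against healthy (WT, KO) and the interaction; points are estimates, bars approximate 95% intervals (from the standard error), filled points an adjusted p under 0.05. Escherichia-Shigella with DSS in both genotypes (5.85 and 5.15) and Enterococcus with DSS in KO mice (4.88) are the filled points.

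Of the 3 member genera, then, 1 passed for DSS against healthy in WT mice, where the fit called 22.7% of 66 genera, and 2 passed in KO mice, where it called 34.8%. None passed for KO against WT in healthy mice (6.06% of genera called), for KO against WT under DSS (13.6%) or for the interaction (4.55%). At an unadjusted p under 0.05 these 3 edgeR comparisons held 1 member, Mucispirillum in healthy mice, and DESeq2 and limma called no member genus in them. The median log2 change over the 66 genera with DSS was 0.01 (WT) and 0.66 (KO).

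The order of the 3 taxa within a library differed between conditions. Mucispirillum held more reads than Enterobacteriaceae in 7 of 8 healthy libraries, KO replicate 0 being the exception. With DSS, Enterobacteriaceae held more in 7 of 8 libraries, and the exception was WT replicate 0. In KO mice with DSS, the 4 libraries had the same order for Enterobacteriaceae and Enterococcus and the reverse order for Mucispirillum. In WT mice with DSS the library richest in Enterobacteriaceae, replicate 0, was also the richest in Mucispirillum, while Enterococcus was highest in replicate 2.

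Clostridia shares were lowest in healthy KO mice. Healthy WT mice held 40.3%, 46.1%, 39.6% and 44.8% Clostridia, a mean of 42.7% ± 3.24, and healthy KO mice 25.0%, 22.8%, 23.6% and 34.0%, a mean of 26.3% ± 5.18. With DSS, WT mice held 36.5%, 35%, 42.9% and 42.8% (39.3% ± 4.13) and KO mice 39.6%, 51.9%, 50.2% and 51.1% (48.2% ± 5.77). Every healthy KO library lay below every other library, and KO DSS replicate 0 was the lowest of its group. Of the 66 genera tested, 21.2% had no overlap between KO and WT in healthy mice, and 33.3% none between DSS and healthy KO mice.

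In WT mice, Clostridia differed by -3.41 percentage points between DSS and healthy libraries (exact permutation test, two-sided, p = 0.229), while Enterobacteriaceae was 38.5 times as high. As a share of the reads outside the members the difference was -0.96 points (exact permutation p = 0.771), and with 1 library left out it ran from -4.60 to -1.98 points, the latter without WT DSS replicate 1. In KO mice Clostridia was 21.9 points higher with DSS and the groups did not overlap (exact permutation p = 0.0286, adjusted p = 0.107), with Enterobacteriaceae 33.3 times as high. The mean share of class Bacilli was 28.9% in healthy and 4.46% in DSS KO mice (15.9% and 6.97% in WT mice). Because shares are relative, growth of Clostridia and loss of Bacilli cannot be told apart here. The high Enterobacteriaceae shares of DSS mice thus stood beside mean Clostridia shares of 39.3% (WT) and 48.2% (KO), against 42.7% and 26.3% in healthy mice. KO against WT differed by -16.4 points in healthy mice (exact permutation p = 0.0286, adjusted p = 0.107) and by 8.89 points under DSS (p = 0.0857). The interaction was 25.3 points (permutation over 4900 relabellings within conditions, p = 0.00122, adjusted p = 0.0551). These relabellings take genotype to have no effect in either condition, so this is not an exact test of equal genotype effects. No result of these 45 permutation tests passed after adjustment. For 4 against 4 libraries, the exact permutation test gives p = 0.0286 even at full separation, here 0.107 after adjustment. A miss in those tests therefore says little about the size of a difference.

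As a ratio within each library, which does not depend on the total, healthy WT mice had 0.249, 0.436, 0.424 and 0.0774 Enterobacteriaceae reads per 100 Clostridia reads, and healthy KO mice 1.57, 0.415, 0.632 and 0.344. With DSS the ratio was 18, 9.58, 10.7 and 11.4 in WT mice and 31.7, 12.2, 8.17 and 4.11 in KO mice. DSS and healthy libraries did not overlap in either genotype. By share, 31.8% (WT) and 33.3% (KO) of the 66 genera tested did not overlap either. The log2 ratio differed by 5.61 in WT and 4.11 in KO mice (exact permutation test, two-sided, p = 0.0286 each, adjusted p = 0.107), and the interaction was -1.5 (p = 0.164, adjusted p = 0.351).

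For Deferribacteraceae the ratio was 4.16 ± 3.97 reads per 100 Clostridia reads in healthy WT mice and 1.28 ± 0.390 in healthy KO mice. With DSS it was 7.6 ± 11.3 in WT mice, of which replicate 0 had 24.5, and 3.05 ± 0.220 in KO mice. The KO libraries with DSS again lay close together, at 2.79 to 3.32, above the healthy KO libraries (log2 difference 1.30, exact permutation p = 0.0286, adjusted p = 0.107). For Enterococcus the ratio was 0.0289 ± 0.0215, 0.0365 ± 0.0491, 0.0943 ± 0.0605 and 0.627 ± 1.09 in healthy WT, healthy KO, WT DSS and KO DSS mice, and its groups overlapped in every comparison.

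**Figure D4:**
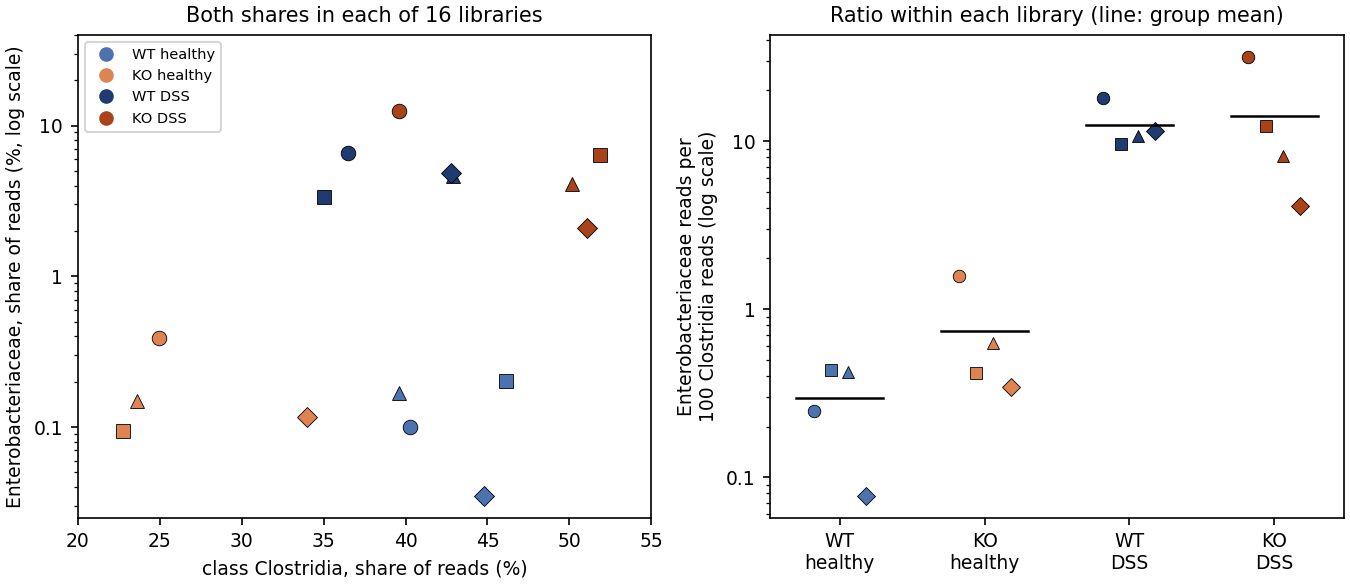
Left, share of Enterobacteriaceae (%, log scale) against share of class Clostridia (%) in each library; right, Enterobacteriaceae reads per 100 Clostridia reads (log scale) by group, with the group mean as a line; colour is the group, shape the replicate number as in the plot of shares. The healthy libraries form a WT cluster at 39.6% to 46.1% and a KO cluster at 22.8% to 34.0% Clostridia, and the ratio is 0.0774 to 1.57 in healthy and 4.11 to 31.7 in DSS libraries.

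Across the 8 DSS libraries, pooled over both genotypes, no member's share was clearly related to the Clostridia share. Enterobacteriaceae gave a Pearson r of -0.30 (permutation p = 0.531) and a Spearman rho of -0.21 (permutation p = 0.619). Mucispirillum gave -0.34 (permutation p = 0.610) and 0.33 (p = 0.428), and Enterococcus -0.24 (permutation p = 0.711) and 0.17 (p = 0.703). Over the 8 relations computed, these Pearson tests had an adjusted p of 0.767 and the Spearman tests 0.849. Without KO DSS replicates 1 and 3, the libraries farthest from the median Clostridia share, r was -0.20, -0.34 and -0.13. The genotypes differed within DSS: r was -0.90, 0.85 and -0.99 in KO mice and 0.05, -0.40 and 0.23 in WT mice. Each of these rests on 4 libraries, too few for a conclusion. Shares of a library sum to its total, so a taxon that takes more reads leaves fewer for the others. With Clostridia taken as a share of the reads outside the members, r was -0.03 for Enterobacteriaceae, -0.14 for Mucispirillum and -0.04 for Enterococcus, and rho was 0.02, 0.40 and 0.33. In the pooled healthy libraries, Mucispirillum gave r = 0.63 (permutation p = 0.0398) and the members summed 0.63 (permutation p = 0.0493), each with an adjusted p of 0.197. Enterobacteriaceae gave -0.33 there (permutation p = 0.475) and Enterococcus 0.12 (permutation p = 0.767). The healthy libraries fell into separate WT and KO clusters of 4 by Clostridia share, too few for a conclusion within each. A pooled r there also holds the difference between the genotypes, so no conclusion is drawn from it.

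Deviations from the group means over all 16 libraries, an analysis chosen after the data were seen, gave r = -0.53 for Enterobacteriaceae (permutation within groups, p = 0.139, adjusted p = 0.271; rho -0.16). For Deferribacteraceae r was -0.05 (permutation p = 0.993; rho 0.19) and for Enterococcus -0.60 (permutation p = 0.167, adjusted p = 0.271; rho -0.24). Without KO DSS replicate 0 and KO healthy replicate 3 these were -0.26, -0.11 and -0.45. KO DSS replicate 0 had the highest Enterobacteriaceae and Enterococcus shares of all libraries and a Clostridia share more than 10 points below the other KO DSS libraries.

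Within Clostridia, genera moved in both directions. Of 51 Clostridia genera tested, edgeR called 4 higher and 6 lower with DSS in WT mice (19.6%, beside 22.7% of all 66 genera, 7 higher and 8 lower). In KO mice it called 10 higher and 5 lower (29.4%, beside 34.8%, 14 higher and 9 lower). The 51 genera make up most of the 66, so the shares of the 2 sets could not differ much. No conclusion is drawn from how near they are. Of the Clostridia calls, 7 of 10 in WT and 6 of 15 in KO mice were of genera that passed the filter through the healthy or the DSS libraries alone. With TMMwsp factors the KO split was 8 higher and 10 lower, and with total counts only the WT split was 4 higher and 10 lower. The median log2 change of the 51 was -0.18 in WT and 0.43 in KO mice, beside 0.01 and 0.66 over all 66 genera. The 3 most abundant Clostridia labels over all libraries were Clostridia UCG-014 (13.8% of reads), the Lachnospiraceae NK4A136 group (6.85%) and unclassified Lachnospiraceae (3.64%).

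Several Clostridia genera had no read left with DSS in a genotype. They passed the filter through the healthy libraries alone, so their values are a description with no test. Lachnospiraceae UCG-001 went from 0.330% ± 0.215 (WT) and 0.263% ± 0.0852 (KO) in healthy mice to no read in any DSS library, and A2 from 0.0569% ± 0.0157 (WT) and 0.0356% ± 0.0112 (KO) to no read in either genotype. Roseburia, a butyrate producer, went from 0.245% ± 0.0337 to no read in WT mice, as did the [Eubacterium] xylanophilum group from 0.754% ± 0.702; in KO mice with DSS each had reads in 1 library. Marvinbryantia went from 0.164% ± 0.0580 to no read in KO mice and had reads in 2 of 4 WT libraries with DSS.

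Other Clostridia were seen in DSS libraries alone and passed the filter only through them, so they too are described with no test. Anaerostipes, a butyrate producer that can use lactate, had reads in the 4 WT libraries with DSS alone, at 3.02% ± 1.46. The [Eubacterium] fissicatena group reached 1.48% ± 0.933 in KO mice with DSS and had reads in 1 WT library with DSS. The [Eubacterium] siraeum group reached 0.421% ± 0.788 in WT mice, in 2 of 4 libraries, and 1.27% ± 1.49 in KO mice.

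Ruminococcus, a genus with fibre-degrading species, differed between the genotypes. In KO mice it rose with DSS from no read to 2.32% ± 0.794 (edgeR, adjusted p = 3.84e-05). In WT mice it held 1.61% ± 0.999 when healthy and 0.231% ± 0.166 with DSS, a log2 difference of -2.21 that did not pass (adjusted p = 0.0845). Its groups did not overlap there, as for 31.8% of the 66 genera tested. KO against WT passed in healthy mice (edgeR, adjusted p = 6.29e-05), as did the interaction (adjusted p = 3.19e-05). The [Eubacterium] coprostanoligenes group went from 0.172% ± 0.174 to 2.01% ± 1.31 in WT mice (edgeR, adjusted p = 0.0239). Its groups overlapped, with a healthy maximum of 0.378% and a DSS minimum of 0.341%.

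Of the other facultative or aerotolerant bacteria listed, only Lactobacillus could be tested, and it moved opposite to Enterobacteriaceae. Lactobacillus, a lactic acid bacterium of the same class as Enterococcus, fell with DSS: it held 10.7% ± 6.14 in WT and 21.5% ± 5.66 in KO mice when healthy, and 1.34% ± 0.871 and 1.11% ± 0.961 with DSS. Its log2 changes were -2.34 ± 0.68 in WT (edgeR, adjusted p = 0.0193) and -4.24 ± 0.74 in KO mice (adjusted p = 0.000299). Staphylococcus had reads in 3 healthy KO libraries only and Bacillus in WT DSS replicate 1 only; neither passed the filter. Proteobacteria and Desulfobacterota outside Enterobacteriaceae had 67 genus labels, none of which passed the filter. They held at most 3.05% of a library, in WT DSS replicate 1, and group means of 0.00398% to 0.0138% in the other 3 groups. Of the other mucus-associated genera listed, Akkermansia, Helicobacter and Bacteroides, no ASV carried the name.

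By Pearson r of log2 normalised counts over the 16 libraries, which fall into the 4 groups and share depth, the genus most like Escherichia-Shigella was Enterococcus (r = 0.77), then Defluviitaleaceae UCG-011 (0.74) and Parabacteroides (0.71). Parabacteroides, a bacteroidete of the colon, rose with DSS from 15.9% ± 2.58 to 26.1% ± 4.43 in WT mice and from 7.35% ± 2.85 to 18% ± 4.18 in KO mice (edgeR, adjusted p = 0.00888 and 0.00464). Mucispirillum was most like Harryflintia (0.87), UCG-005 of the Oscillospiraceae (0.70) and Lachnospiraceae UCG-010 (0.64). Harryflintia, a Ruminococcaceae genus, held 0.0404% ± 0.0285, 0.00359% ± 0.00509, 0.114% ± 0.0764 and 0.0816% ± 0.0272 in healthy WT, healthy KO, WT DSS and KO DSS mice. Enterococcus was most like Escherichia-Shigella (0.77), Incertae Sedis of the Ruminococcaceae (0.63) and the [Eubacterium] fissicatena group (0.59). Between Mucispirillum and the other members r was lower, at 0.47 with Escherichia-Shigella and 0.31 with Enterococcus.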

How the data were processed

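Per the labels, DNA was isolated from stool (DNeasy PowerSoil Pro), the V3 to V4 stretch was amplified (primers 341F, 805R) and sequencing used a MiSeq. Cutadapt is named in the submitters' processing notes; denoiser, classifier and database are not given in the sources used here. The deposited table holds raw read counts per ASV and library. The deposited taxonomy gives each assignment's confidence as a fraction, 0.764 to 1 for the 8 members. Replicates differed by far more than counting noise (chi-square per degree of freedom 28.0 to 141 in 24 pairs).

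Members and lists were chosen with earlier results of these data known. Counts were summed to 340 genus labels. The 66 genera and 308 ASVs that reached 5 reads in 4 or more libraries entered edgeR 4.0.16 (R 4.3.3; TMM factors, 1 spread for all groups). Shares (log2 of percent plus 0.01), Clostridia percent and log2 ratios to Clostridia (0.5 reads added) had two-sided permutation tests, adjusted over 45. Tests between groups were exact over 70 relabellings. Interactions used 4900 relabellings of genotype within conditions, which assume no genotype effect in either condition. Simulated counts with known changes were used to test the edgeR step.

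Alternatives were TMMwsp, RLE (poscounts) and total-count scaling, DESeq2 1.42.0, limma 3.58.1 on centred log-ratios, no filter, 20 reads, only the groups compared, a replicate block, larger pseudocounts (0.1, 5 reads), Clostridia outside member reads, and each library left out. Added after seeing the data were library sizes over all reads, leaving out ASVs of 1 library, and within-group deviations. Genera outside the members were named by a rule: the 3 most like each member, listed genera that passed, and the 3 most abundant and 3 most changed Clostridia per direction with DSS.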

Additional observations from a re-analysis of the deposited data

Results flagged for a closer look

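In 3 of 20 sets of 4 libraries checked, a library lay farther from the rest of its group than Dixon's 95% limit. Chance alone gives this in about 1 in 20 groups. Deferribacteraceae held 8.94% of reads in WT DSS replicate 0, against 0.50% to 0.996% in the other WT libraries with DSS. Enterococcus held 0.893% in KO DSS replicate 0, against 0.0165% to 0.0737% in the other KO libraries with DSS. Clostridia held 39.6% in that same KO DSS replicate 0, against 50.2% to 51.9% in the other 3. The cause of each was not tested.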

How the results depend on the processing

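The rise of Escherichia-Shigella with DSS kept its direction and passed under all 19 alternatives in each genotype, at log2 changes of 5.29 to 6.38 in WT and 4.09 to 5.80 in KO mice. Other results moved, and the cause was not tested. KO against WT for Escherichia-Shigella under DSS turned to -0.29 with TMMwsp factors, -0.19 with limma and -0.25 with the replicate block. It ranged from -0.51 to 0.83 with libraries left out.

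Mucispirillum with DSS in KO mice passed with DESeq2 (1.99), with only the groups compared (1.89) and without ASVs of 1 library (2.05). With libraries left out, Mucispirillum ranged from -0.38 to 2.08 for DSS in WT mice and from -0.93 to 0.68 for KO against WT under DSS.

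Enterococcus with DSS in KO mice did not pass with limma (3.9, adjusted p = 0.0526), no filter (4.33, adjusted p = 0.258) or only the groups compared (5.02, adjusted p = 0.0616), and ranged from 1.75 to 6.04 with libraries left out. For KO against WT in healthy mice it turned to 0.37 with TMMwsp, 0.21 with RLE factors, 0.20 with DESeq2, 0.13 with limma, 0.13 with no filter, 0.078 with 20 reads, 0.16 with only the groups compared, 0.030 with the replicate block, 0.13 with library sizes over all reads and 0.13 without ASVs of 1 library. With libraries left out it ranged there from -1.19 to 0.81, under DSS from -0.33 to 3.85, and for the interaction from -0.46 to 3.83. Asv29 for KO against WT in healthy mice ranged from 0 to 7.15, and passed with DESeq2 (5.98) and with no filter (6.64).

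The Clostridia interaction passed after adjustment as a share of reads outside the members (26.7 points) and without 7 of the 16 libraries, each in turn, over a range of 23.8 to 28.1 points. Genera called for KO against WT under DSS were 14 with TMMwsp, 17 with no filter and 2 with the replicate block, against 9. With no filter 15 were called for DSS in KO mice, against 23. For the interaction, with 3, they were 10 with DESeq2, 5 with TMMwsp, 8 with limma and 1 with the block. With libraries left out they ranged from 9 to 15 for DSS in WT mice, 2 to 6 for KO against WT in healthy mice and 1 to 5 for the interaction. The median change of all genera for DSS moved from 0.66 to 0.09 in KO mice with TMMwsp and from 0.01 to -0.55 in WT mice with total counts only.

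Correlations of same-numbered libraries' deviations ran from -0.15 to -0.02 between WT healthy and DSS, -0.28 to 0.09 between KO healthy and DSS, 0.037 to 0.29 between healthy WT and KO, and -0.38 to 0.28 between WT and KO with DSS. Not every pair was above 0.1 in any of these, so libraries were not paired in the main tests. Each deviation is from a mean of 4 libraries, so this rule cannot tell whether a number marks the same animal. The replicate block, given above where it turned a sign or moved a count, changed no other call of a member genus, and its permutation form cannot go below p = 0.125. Enterococcus rests on 0 to 43 reads per library outside 1 library.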
